A study of Mus musculus with 8 samples.

Results

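The genes described here are 10 genes of MHC class I antigen presentation, taken from a fixed list of names and matched by Ensembl ID among the 55487 genes of the count table: *B2m*, *H2-K1*, *H2-D1*, *Tap1*, *Tap2*, *Tapbp*, *Psmb8*, *Psmb9*, *Psmb10* and *Nlrc5*. All 10 passed the filter on low counts and were among the 20610 genes tested. They were measured by bulk RNA-seq of long-term hematopoietic stem cells (LT-HSCs) from mouse fetal liver at E14.5, with 500 cells sorted per sample as lineage-depleted, SCA1 and cKIT positive, CD150+ and CD48- cells. There were 3 *IκBα* WT samples (WT1 to WT3), 3 heterozygous samples (HET1 to HET3) and 2 knockout samples (KO1 and KO2), all of them embryos of the *Nfkbia* tm1Bal line, a germline knockout in which every cell type of the embryo carries the allele, from matings in which some parents also carried *Gfi1:tomato*. The study discarded 1 further KO sample for its sequencing quality. WT1, WT2 and HET1 were male and are labeled total RNA, whereas WT3, HET2, HET3, KO1 and KO2 were female and are labeled polyA RNA, so that sex and RNA label cannot be told apart and both KO samples were female. Nothing in the labels says whether embryos of a genotype came from separate litters, and p-values measure the spread between these samples.

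Nearly every nucleated cell displays peptides of its own proteins at the surface in the groove of MHC class I, so that T cells and natural killer cells can inspect them. Proteasomes cut the peptides, of which the immunoproteasome carries the inducible catalytic subunits LMP7, LMP2 and MECL-1, the TAP transporter moves them into the endoplasmic reticulum, tapasin helps to load them onto the heavy chain, and β2-microglobulin holds the complex together. NF-κB, the transcription factor that IκBα keeps inactive in the cytoplasm, and interferon-responsive factors bind the upstream region of class I heavy chain genes, and NLRC5 acts as a coactivator at the same promoters through the SXY module, to which RFX, CREB and NF-Y factors bind.

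The upstream sequence of *B2m* and *H2-K1* is shown because both genes encode chains of the complex itself and hold a match to the κB consensus. The sequences are those of RefSeq on GRCm38.p6, where 8 of the 10 members were found, all but *Tap2* and *Nlrc5*. They run 5′ to 3′ on the gene's strand and end at the base before the RefSeq transcription start. Capitals mark, in order, the κB match, the interferon-stimulated response element, the core TGACG of the X2 box and the Y box ATTGG. The response element is marked only where the letters GAANNGAAA match on either strand.
B2m, chr2:122147487-122147686, plus strand: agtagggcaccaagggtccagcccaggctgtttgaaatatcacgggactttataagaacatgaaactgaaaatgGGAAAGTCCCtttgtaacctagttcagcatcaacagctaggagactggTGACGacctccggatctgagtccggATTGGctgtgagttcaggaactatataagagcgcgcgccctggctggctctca
H2-K1, chr17:34000348-34000547, minus strand: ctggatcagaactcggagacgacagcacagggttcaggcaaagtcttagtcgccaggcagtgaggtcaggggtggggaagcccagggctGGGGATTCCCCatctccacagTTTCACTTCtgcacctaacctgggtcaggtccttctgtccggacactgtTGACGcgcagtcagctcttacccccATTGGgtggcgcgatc
The κB match of *H2-D1* was flanked by nearly the same bases as that of *H2-K1*. The stretch from the κB match to the response element (matched as GAANNGAAA or its reverse complement, printed here on the gene's strand with both motifs in capitals) differed by 1 base, A18T, counted from the 5′ end with the *H2-K1* base first.
H2-K1, chr17:34000429-34000458, minus strand: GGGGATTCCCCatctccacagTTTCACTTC
H2-D1, chr17:35262923-35262952, plus strand: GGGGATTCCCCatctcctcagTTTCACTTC
Searched on both strands from 250 bases before to 50 bases after each start, the κB consensus was found in *B2m*, *H2-K1* and *H2-D1*, 3 of 8 members with a window, against 8.5% of 32851 promoters. By the letters GAANNGAAA, the response element was found in *H2-K1* and *H2-D1* (7.5% of all promoters). The stretch gaaactgaaa before the κB match of *B2m* has 1 more base between GAA and GAAA than these letters allow. Response elements of that spacing were not searched for. TGACG was found in *B2m*, *H2-K1*, *H2-D1*, *Tap1* and *Psmb9* (20.8%), and ATTGG in these 5 and in *Tapbp* (37.4%). *Psmb8* and *Psmb10* held none of the 4 motifs in their windows. Starts differ between RefSeq and the GENCODE annotation used for the gene positions below. The *Psmb8* window begins at base 34197945, inside the GENCODE span of the gene, which runs from 34197721. The windows of *Tapbp*, *Psmb9* and *H2-D1* also begin inside their GENCODE spans. Bases before those GENCODE starts were not searched. A match is only a run of letters, and the windows of *Tap1* and *Psmb9*, which are transcribed in opposite directions, overlap.

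Before the members, the marker genes of the sorted cells are described, because samples stood apart by them. The number of reads assigned to genes ranged from 17895973 to 21720972, and 3 reads correspond to 0.125 to 0.178 CPM, the counts after TMM scaling for library size. Such limits cover counting error only. The deleted gene *Nfkbia* had 1 read in KO1 and 0 in KO2, and 14.4 to 67.7 CPM in the other samples. The summed level of the 10 LT-HSC markers was 1795 CPM in WT1, 1949.9 in WT2, 1778 in KO1 and 1182 in KO2, followed by 712 in HET1, 608 in HET2, 290.1 in WT3 and 201 in HET3. *Cd34*, the most abundant of them, had 47.1 CPM in WT3 and 7.53 CPM in HET3 against 274 to 459 CPM in WT1, WT2 and both KO samples. HET3 had 0 reads of *Hoxb5* and 0 reads of *Ly6a*, which encodes SCA1, a marker of the gate itself. *Kit*, which encodes cKIT, had 135 to 231 CPM and *Cd48*, which the gate excludes, had 45.8 to 89.1 CPM in every sample.

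Hepatocyte markers were highest in the samples poorest in LT-HSC markers. The 8 genes summed to 1310.1 CPM in WT3 and 645 CPM in HET3, against 8.77 to 163 CPM in the other WT and HET samples, 7.68 CPM in KO1 and 237 CPM in KO2. Of these markers *Afp* was the most abundant and had 4.45 CPM or more in every sample, while *Serpina1a* had 0 reads in WT1, WT2 and KO1. The 9 erythroid markers, led by the globin gene *Hbb-bs*, summed to 1328 to 3464 CPM in WT, 4000.4 to 14816 CPM in HET and 768 to 3350.5 CPM in KO. Of the remaining lists, the 8 macrophage and Kupffer cell markers, led by *Lyz2*, summed to 428 to 671 CPM in WT, 101 to 429 CPM in HET and 328 to 394 CPM in KO. *Lyz2* carried most of this sum, and the 7 other markers together were highest in WT3 (246 CPM) and lowest in KO1 (9.88 CPM), with 27.6 to 119 CPM in the other samples. The 8 neutrophil and granulocyte-monocyte progenitor markers, led by *Mpo*, reached 130.2 to 918 CPM in WT, 121 to 596 CPM in HET and 146 to 507 CPM in KO. For the 5 megakaryocyte markers, led by *Pf4*, the sums were 61.5 to 1258 CPM, 23.3 to 429 CPM and 107 to 1009 CPM in the same order. B cell markers (7 genes, led by *Cd79b*) and liver endothelial markers (6 genes, led by *Emcn*) were in sum lowest in HET3, at 2.67 and 4.51 CPM, and highest in WT1, at 101.8 and 156 CPM. The B cell sum was nearly all *Cd79b*, and the others that could be tested were highest together in HET2 (14.2 CPM, against 0.208 to 4.35 CPM elsewhere). *Emcn* and *Pecam1* carried most of the endothelial sum, at 85.7 and 61.3 CPM in WT1. The other endothelial markers did not share that order. *Cdh5* and *Kdr* were highest in WT2 (6.77 and 6.56 CPM), *Stab2* in WT3 (4.01 CPM) and *Lyve1* in KO2 (0.836 CPM). T and NK cell markers (6 genes, led by *Nkg7*, with *Cd3e* at 0 reads in every sample) stayed between 5.21 and 22.1 CPM. WT3 and HET3 thus stood apart from the rest, and the comparisons of KO with WT and HET are also given without them. In bulk samples, fewer cells of a type and less RNA per cell cannot be told apart.

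The 10 members together carried 2579.7 CPM in KO1, 2337 in WT2, 2252 in WT1 and 1758 in KO2, then 1459 in HET2, 1357 in HET1, 909 in WT3 and 894 in HET3. The 4 samples with the highest class I sum were the 4 with the highest LT-HSC marker sum, and WT3 and HET3 were lowest for both. For 8 members, all but *Psmb10* and *Nlrc5*, WT1, WT2, KO1 and KO2 were the 4 highest samples, a pattern shown by 16.0% of all genes tested, and a further 13.8% of all genes were lowest in these 4 samples. The part of cell composition in the differences between genotypes was not tested.

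**Figure D1:**
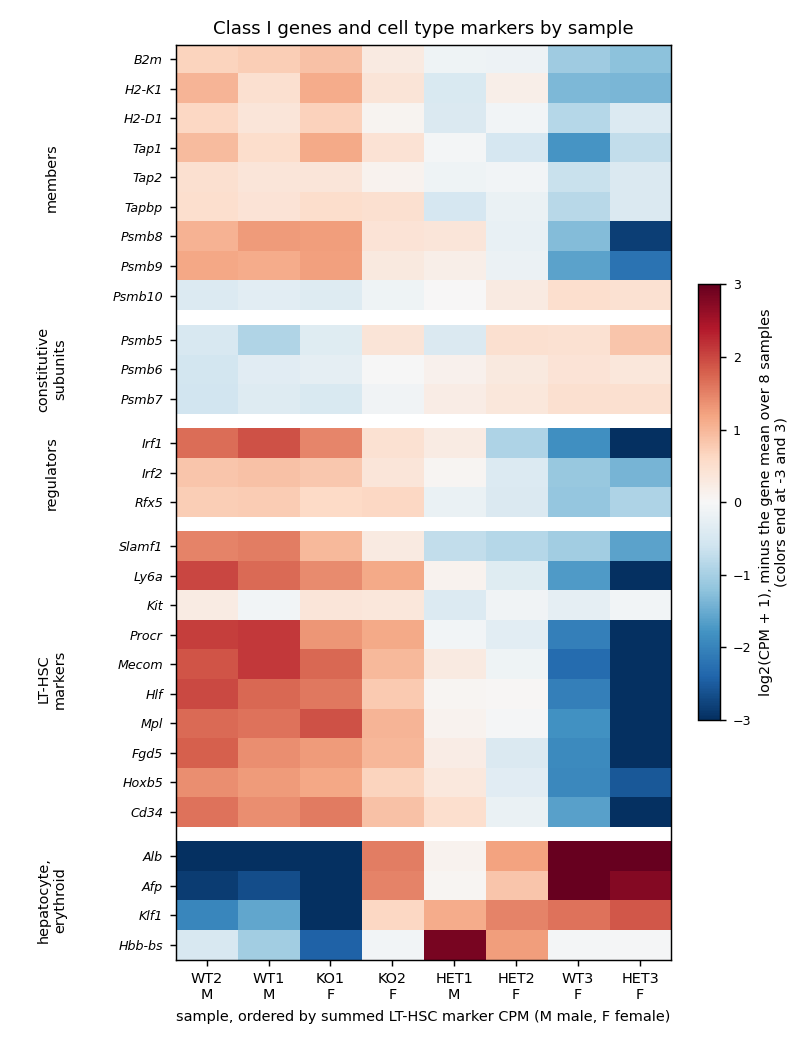
Centered log2(CPM + 1) of 9 members (*Nlrc5*, near the detection limit, is not drawn), the constitutive subunits, 3 regulators, the LT-HSC markers and 4 hepatocyte and erythroid markers. Columns are samples ordered by the summed CPM of the 10 LT-HSC markers, with sex below. WT2, WT1, KO1 and KO2 on the left are high for 8 of the members and for LT-HSC markers, whereas WT3 and HET3 on the right are low for both and high for *Alb* and *Afp*.

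Compared per length, as CPM per kilobase of annotated exon (RPKM) over all 8 samples, *B2m* was the most abundant member with 946 ± 451 RPKM (SD, n = 8), above the next gene in 8 of 8 samples. *Psmb10* (124 ± 32.9 RPKM) and *H2-D1* (95.9 ± 35.4 RPKM) changed places between samples, with *Psmb10* above in 5 of 8. *H2-K1* followed with 60.7 ± 34.7 RPKM, below *H2-D1* in 8 of 8 samples. *Psmb8* (27.7 ± 17.9 RPKM), *Tapbp* (16.0 ± 5.70 RPKM) and *Psmb9* (15.4 ± 10.2 RPKM) did not keep their order, since *Psmb8* exceeded *Tapbp* in 6 of 8 samples and *Tapbp* exceeded *Psmb9* in 4 of 8. The transporter genes were lower, with 4.08 ± 1.16 RPKM for *Tap2* and 3.14 ± 1.87 RPKM for *Tap1*, and *Nlrc5* was last with 0.132 ± 0.0914 RPKM. Exon lengths are the union over annotated transcripts, so that genes with many annotated isoforms get lower values.

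To ask whether loss of IκBα changed these genes, KO samples were compared with the pooled WT and HET samples by edgeR's quasi-likelihood test, with sex and genotype in the model. A gene was called when its adjusted p-value was under 0.05 and its log2 fold change was over 1 in size, and 0 of the 10 members were called, like all 20610 genes (0% called, with 5196 genes at an unadjusted p-value under 0.05). At an unadjusted p-value under 0.05, 7 members were higher in KO, where 15.7% of all genes tested were, and *Psmb10* was lower in KO, where 9.48% of all genes were, in all 8 of 10 members against 25.2% of all genes. Their median log2 fold change was 1.16, against 0.13 over all genes tested. Because both KO samples were female, a fit with sex in the model compares them in effect with WT3, HET2 and HET3, among them the pair of samples poor in LT-HSC markers. Without WT3 and HET3, a selection made after seeing the data that leaves HET2 as the only female reference, 1 member (*Tap1*) remained higher at an unadjusted p-value under 0.05, where 4.18% of all genes were (5.23% in either direction), and the median log2 fold change of the members was 0.64 against 0.14 over all genes.

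The LT-HSC markers moved with the members in the same contrasts. All 10 of them were higher in KO at an unadjusted p-value under 0.05 (15.7% of all genes), with a median log2 fold change of 2.76. Once WT3 and HET3 were left out, 2 of 10 were higher (4.18% of all genes), with a median of 1.52. Their part in the class I difference was not tested. DESeq2 with apeglm shrinkage, the procedure of the methods, called *B2m*, *Tap1*, *Psmb8* and *Psmb9*, 4 of 10 members, higher in KO, where it called 6.50% of all genes. The same procedure without WT3 and HET3 called 0 of 10 members, where it called 0.0759% of all genes higher in KO. In CPM, 0 of 10 members had both KO samples above all 6 WT and HET samples (3.05% of all genes) and 0 had both below (1.79%). Against the 3 female references alone, 8 members had both KO samples above, where 27.1% of all genes did, and 1 had both below, where 21.4% did. The fit on female samples alone gave the same 7 members higher (13.7% of all genes) and *Psmb10* lower (13.6%) at an unadjusted p-value under 0.05.

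**Figure D2:**
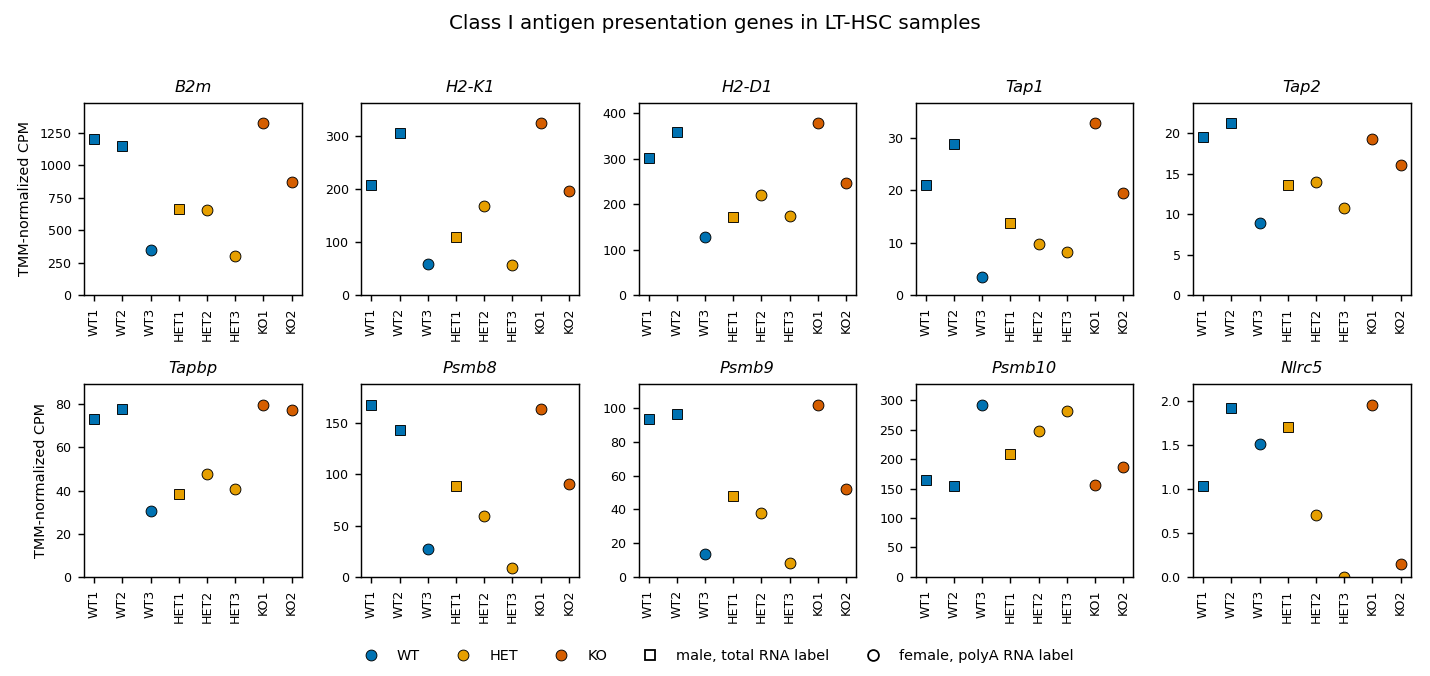
TMM-normalized CPM of each member in the 8 samples, 1 point per sample, with color for genotype and shape for sex and RNA label. For the class I chains, the transporter and loading genes, *Psmb8* and *Psmb9*, both KO points lie above the female WT3, HET2 and HET3. KO1 lies among or near the male WT points. KO2 lies below both of them for all of these genes but *Tapbp*, and near HET1 for *Psmb8* and *Psmb9*. *Psmb10* has the opposite order.

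The class I chains were all higher in KO than in the female references. *B2m* encodes β2-microglobulin, the invariant light chain, on chromosome 2 of GRCm38 (122147686 to 122153083, plus strand), outside the MHC. It had 1202, 1148 and 345 CPM in WT1, WT2 and WT3, 664, 653 and 305 CPM in HET1, HET2 and HET3, and 1323 and 873 CPM in KO1 and KO2. KO1 was the highest of all samples and KO2 lay between the male WT and the HET samples, so that the groups overlapped. Its log2 fold change was 1.34 with a standard error of 0.384 (edgeR adjusted p = 0.148), and 0.72 with a standard error of 0.468 (adjusted p = 0.671) without WT3 and HET3. In linear terms its mean was 1098 ± 318 CPM (SD, n = 2) in KO, 434 ± 190.3 CPM (SD, n = 3) in the female references and 1005 ± 296 CPM (SD, n = 3) in the male ones.

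*H2-K1* and *H2-D1* encode the classical heavy chains K and D, in the MHC on chromosome 17 (33996017 to 34000347, minus strand, and 35262730 to 35267499, plus strand). For *H2-K1* the WT samples had 208, 306 and 58.6 CPM, the HET samples 109, 168 and 56.9 CPM, and KO1 and KO2 324 and 196 CPM. WT3 and HET3 were the lowest, and KO2 was below both male WT samples. *H2-D1* spanned a smaller range, with 301, 359 and 129 CPM in WT, 172, 220.1 and 173 CPM in HET, and 378 and 247 CPM in KO. Its lowest sample was WT3 and its HET samples lay close together. The log2 fold change was 1.46 with a standard error of 0.556 for *H2-K1* (edgeR adjusted p = 0.167) and 0.84 with a standard error of 0.343 for *H2-D1* (adjusted p = 0.180). Without WT3 and HET3 the values were 0.60 and 0.47 (adjusted p = 0.728 for both). Of the 50-base runs of their annotated transcripts, 9.63% of *H2-K1* and 12.8% of *H2-D1* occur in other genes, where uniquely mapped reads are lost, and reads with more than 1 mismatch to the reference allele were not aligned.

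Among the genes of transport and loading, *Tap1* had the largest fold change. It encodes one of the paired chains of the peptide transporter (chromosome 17, 34187553 to 34197225, plus strand). *Tap1* had 21.1, 28.7 and 3.49 CPM in WT1, WT2 and WT3, 13.7, 9.79 and 8.19 CPM in HET1, HET2 and HET3, and 32.8 and 19.6 CPM in KO1 and KO2. WT3 was the lowest sample and KO1 the highest, and KO2 lay just below WT1. For *Tap1* the log2 fold change was 1.87 with a standard error of 0.479 (edgeR adjusted p = 0.148), and it was 1.39 with a standard error of 0.569 (adjusted p = 0.671) without WT3 and HET3. Its partner chain *Tap2* (34203527 to 34216321, plus strand) varied less, with 19.5, 21.2 and 8.96 CPM in WT, 13.6, 14.0 and 10.8 CPM in HET, and 19.3 and 16.0 CPM in KO. Both KO samples of *Tap2* lay below both male WT samples and above the 4 others. It did not reach an unadjusted p-value of 0.05, at a log2 fold change of 0.65 with a standard error of 0.300 (edgeR adjusted p = 0.215), and 0.30 (adjusted p = 0.791) without WT3 and HET3. *Tapbp* encodes tapasin, which bridges the transporter and the empty heavy chain (33915899 to 33929292, plus strand). Its KO samples were nearly equal, at 79.6 and 77.2 CPM, beside 73.0, 77.7 and 30.5 CPM in WT and 38.4, 47.9 and 40.6 CPM in HET. The KO samples of *Tapbp* were at the level of WT1 and WT2 and clear of the 4 others. The log2 fold change was 0.98 with a standard error of 0.308 (edgeR adjusted p = 0.152), and 0.68 (adjusted p = 0.671) without WT3 and HET3. By exact two-sided permutation over samples on log2 CPM, *Tapbp* had the smallest p of the 10 members, p = 0.143, where 2 samples against 6 allow no p below 0.0714.

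Several of these genes overlap others on the opposite strand, and the strand setting of the counting is not stated. *Tap1* and *Psmb9* share 212 exonic bases, *Tapbp* shares 904 (24.9% of its exon length) with *Gm19412*, *Tap2* shares 533 with *Gm15821* and *Psmb8* shares 498 with *Gm20496*, so that their counts are uncertain to that extent.

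Among the immunoproteasome genes, *Psmb8* and *Psmb9* were high and low in the same samples, and *Psmb10* had nearly the reverse order. *Psmb8* encodes LMP7, the β5i subunit (chromosome 17, 34197721 to 34201454, plus strand). It had 168, 143 and 27.1 CPM in WT1, WT2 and WT3, 88.7, 59.0 and 8.84 CPM in HET1, HET2 and HET3, and 164 and 91.0 CPM in KO1 and KO2. HET3 was the lowest, 19-fold below WT1, the widest range of the 9 members detected in every sample. *Psmb9* encodes LMP2, the β1i subunit (34181987 to 34187764, minus strand), and had 93.6, 96.5 and 13.4 CPM in WT, 48.2, 37.8 and 8.30 CPM in HET, and 101.98 and 52.2 CPM in KO. Again WT3 and HET3 were lowest and KO2 lay near HET1. The log2 fold changes were 2.01 with a standard error of 0.644 for *Psmb8* and 1.96 with a standard error of 0.607 for *Psmb9* (edgeR adjusted p = 0.152 for both). Without WT3 and HET3 they were 1.08 with a standard error of 0.4999 and 0.999 with a standard error of 0.562 (adjusted p = 0.671 for both).

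*Psmb10* encodes MECL-1, the β2i subunit, and lies outside the MHC on chromosome 8 (105935735 to 105938444, minus strand). Its levels ran the other way, with 165, 155 and 292 CPM in WT, 208, 249 and 282 CPM in HET, and 156 and 187 CPM in KO. WT3 and HET3 were here the highest samples, and the KO samples were below all 4 samples other than the male WT. The log2 fold change was -0.68 with a standard error of 0.183 (edgeR adjusted p = 0.148), and -0.57 with a standard error of 0.284 (adjusted p = 0.671) without WT3 and HET3.

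*Nlrc5*, the transactivator of class I genes (chromosome 8, 94434356 to 94527272, plus strand), was the least abundant member and close to the limit of detection. It had 1.03, 1.92 and 1.51 CPM in WT, 1.70 and 0.706 CPM in HET1 and HET2, and 0 reads in HET3, where 3 reads would be 0.178 CPM. KO1 had 1.96 CPM and KO2 3 reads or 0.148 CPM, the highest and nearly the lowest value of the series. The 40 reads of KO1 against the 3 of KO2 set the KO samples far apart, and the log2 fold change was 0.50 with a standard error of 1.38 (edgeR adjusted p = 0.848), or 0.54 (adjusted p = 0.902) without WT3 and HET3.

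**Figure D3:**
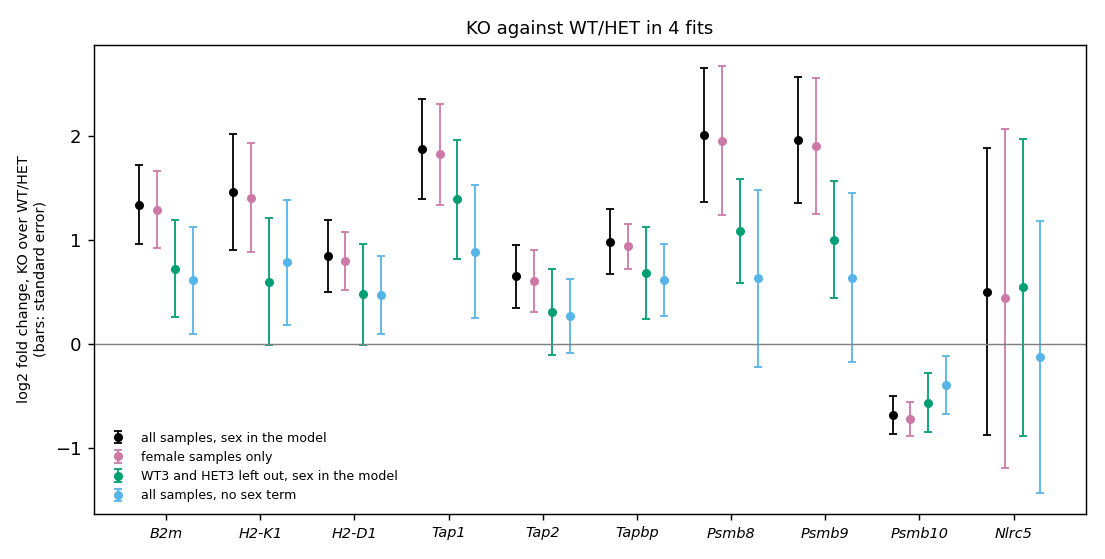
Log2 fold change of KO over WT/HET for each member with its standard error, from edgeR's fit to all samples with sex in the model, to the female samples only, to the samples without WT3 and HET3, and to all samples without a sex term. Values from the first pair of fits nearly coincide, as for *B2m* at 1.34 and 1.29, whereas leaving out WT3 and HET3 or the sex term moves the class I chains and *Psmb8* and *Psmb9* toward 0, and *Nlrc5* changes sign without the sex term.

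The immunoproteasome subunits replace the constitutive subunits β5, β1 and β2, which are encoded by *Psmb5*, *Psmb6* and *Psmb7*. The log2 ratio of *Psmb8* to *Psmb5* in CPM was 1.87, 1.21 and -2.15 in WT1, WT2 and WT3, 0.45, -1.04 and -4.13 in HET1, HET2 and HET3, and 1.27 and -0.33 in KO1 and KO2. The ratio of *Psmb9* to *Psmb6* was -2.31, -2.05 and -5.86 in WT, -3.73, -4.25 and -6.45 in HET, and -2.24 and -3.47 in KO. Both ratios were thus lowest in WT3 and HET3 and similar in KO1 and the male WT samples. On this scale the KO mean exceeded that of the 6 reference samples by 1.10 for *Psmb8*/*Psmb5* (exact two-sided permutation test, p = 0.571) and by 1.25 for *Psmb9*/*Psmb6* (exact permutation p = 0.357). Against the 3 female references the differences in log2 ratio were 2.91 and 2.66 (exact permutation p = 0.200 for both, the smallest p that 2 samples against 3 allow). With WT3 and HET3 left out, the differences were -0.15 and 0.23 from the mean of WT1, WT2, HET1 and HET2, and 1.51 and 1.39 from HET2, the female reference that is left.

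The ratio of *Psmb10* to *Psmb7* hardly varied. Its log2 value ranged from -0.00 in HET1 to 0.36 in WT2 and was 0.27 and 0.17 in KO1 and KO2, a difference of 0.03 from the WT and HET samples (exact two-sided permutation test, p = 0.857). Expressed per length, *Psmb10* made up 66.7% to 72.1% of the summed RPKM of *Psmb10* and *Psmb7* in every sample. In contrast, *Psmb8* made up between 1.48% in HET3 and 49.3% in WT1 of its pair with *Psmb5*, and *Psmb9* between 0.574% in HET3 and 11% in WT2 of its pair with *Psmb6*.

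**Figure D4:**
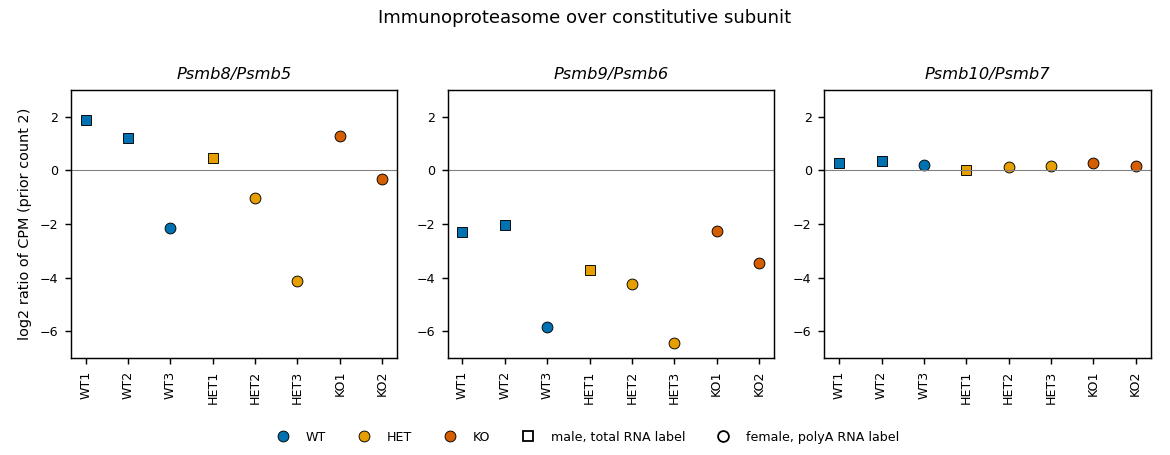
Log2 ratio of CPM (prior count 2) of each immunoproteasome subunit over the constitutive subunit it replaces, 1 point per sample, with color for genotype and shape for sex and RNA label. *Psmb8*/*Psmb5* and *Psmb9*/*Psmb6* spread over several log2 units with WT3 and HET3 lowest, and *Psmb10*/*Psmb7* stays between -0.00 and 0.36.

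In contrast to *Psmb8* and *Psmb9*, most other proteasome genes were lower in KO than in the female references. Both KO samples lay below the 3 female references for all 3 constitutive catalytic subunits, as they did for 21.4% of all genes. *Psmb7* had a log2 fold change of -0.72 with a standard error of 0.246 (edgeR adjusted p = 0.156). It had 137, 121 and 252 CPM in WT, 208, 226 and 249 CPM in HET, and 129 and 166 CPM in KO. The log2 fold change was -0.49 for *Psmb6* (adjusted p = 0.205) and -0.54 for *Psmb5* (adjusted p = 0.230). The values without WT3 and HET3 were -0.65, -0.47 and -0.44 for *Psmb7*, *Psmb6* and *Psmb5*. Of the 11 other subunits of the 20S core, 10 were lower at an unadjusted p-value under 0.05 (9.48% of all genes) and 0 were higher. Their log2 fold changes ran from -0.93 for *Psmb3* to -0.38 for *Psma4* with a median of -0.66, and were -0.81 for *Psma5*, -0.72 for *Psma6* and -0.70 for *Psma2*. Assembly factors were lower too, since 5 of the 9 genes for proteasome activators and assembly were lower and 1 (*Psme1*) was higher. The named assembly genes were *Pomp* (log2 fold change -0.68), *Psmg1* (-0.64), *Psmg2* (-0.96) and *Psmg3* (-1.03). None of these genes passed the adjusted threshold. Without WT3 and HET3, 0 of the 11 core subunits and 0 of the 9 activator and assembly genes had an unadjusted p-value under 0.05. Of all genes, 5.23% did. The median log2 fold changes of the 2 lists were -0.65 and -0.50.

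Transcriptional regulators of class I genes were examined next. Of 22 genes, 5 were higher and 3 lower at an unadjusted p-value under 0.05, beside 15.7% and 9.48% of all genes, with a median log2 fold change of 0.35. The interferon regulatory factor *Irf1*, an activator that binds the response element of class I promoters, had 83.0, 69.7 and 5.26 CPM in WT1, WT2 and WT3, 25.3, 10.8 and 1.78 CPM in HET1, HET2 and HET3, and 60.7 and 29.7 CPM in KO1 and KO2. It was again highest in the male WT and lowest in WT3 and HET3. *Irf1* had a log2 fold change of 2.92 with a standard error of 0.721 (edgeR adjusted p = 0.148), and 2.03 with a standard error of 0.796 (adjusted p = 0.671) without WT3 and HET3. *Irf2*, a related factor that binds the same element, had 145, 139.9 and 34.9 CPM in WT, 82.0, 58.1 and 29.2 CPM in HET, and 137 and 101 CPM in KO, with a log2 fold change of 1.54 (1.001 without WT3 and HET3). *Rfx5*, the subunit of the RFX complex that binds the X1 box, had 9.35 and 9.44 CPM in KO, 10.5, 10.4 and 2.08 CPM in WT and 4.95, 4.09 and 2.61 CPM in HET, at a log2 fold change of 1.68 (1.17 without WT3 and HET3). The type I interferon receptor chain *Ifnar1* had a log2 fold change of 1.07 (1.21 without WT3 and HET3), and the kinase *Jak1* was the fifth that was higher (0.73). The 3 that were lower were the interferon γ receptor chain *Ifngr1* (-0.71), the NF-Y subunit *Nfyc* (-0.52) and *Rfxap* of the RFX complex (-0.46). When WT3 and HET3 were left out, 2 of the 22 were higher and 1 was lower, beside 4.18% of all genes higher and 5.23% in either direction. DESeq2 with apeglm called 3 of the 22 genes higher in KO, beside 6.50% of all genes.

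Other class I genes were also higher in part. Of 17 class Ib and related genes, 15 could be tested, 5 were higher at an unadjusted p-value under 0.05 (15.7% of all genes) and 0 lower, with a median log2 fold change of 1.39. Among the 5, *H2-Q1*, had a mean of only 0.0678 CPM, below the limit set by 3 reads. *H2-T23*, which encodes Qa-1, a ligand of natural killer cell receptors, had 62.7, 90.5 and 10.7 CPM in WT, 20.05, 25.8 and 6.76 CPM in HET, and 77.8 and 25.7 CPM in KO. The values of *H2-T23* in KO1 and KO2 thus fell at the levels of the male WT and of the HET samples, respectively. The remaining named genes were *Mr1*, which presents vitamin B metabolites (log2 fold change 1.94), *Cd1d1*, which presents lipids (1.08), and *H2-M3*, which presents formylated peptides (1.72), with edgeR adjusted p-values from 0.152 to 0.158. *Cd1d1* shares 19.1% of its 50-base runs with *Cd1d2*. Leaving out WT3 and HET3, the log2 fold changes were 1.95 for *Mr1*, 0.88 for *Cd1d1*, 1.28 for *H2-M3* and 0.98 for *H2-T23*. In that fit 0 of the 15 genes were higher and 1 was lower at an unadjusted p-value under 0.05. Of all genes, 4.18% were higher and 5.23% passed in either direction.

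Among genes of peptide loading, most did not pass the test. Of 11 genes for chaperones, translocation and trimming, 2 were higher at an unadjusted p-value under 0.05, a share near the 15.7% of all genes, and 0 were lower, and the median log2 fold change was -0.08. The pair that was higher consisted of *Tapbpl*, which encodes the tapasin relative TAPBPR (34.8, 25.9 and 9.53 CPM in WT, 15.8, 10.3 and 5.93 CPM in HET, 23.8 and 15.4 CPM in KO, log2 fold change 1.19), and *Erap1*, the aminopeptidase that trims peptides in the endoplasmic reticulum (log2 fold change 0.96), both with an edgeR adjusted p-value near 0.15 (0.154 and 0.155). The cytosolic peptidase *Tpp2* and the chaperone calnexin, *Canx*, did not pass either, with a log2 fold change of -0.43 for the former (adjusted p = 0.230) and -0.36 for the latter (adjusted p = 0.288). With WT3 and HET3 left out, 0 of the 11 had an unadjusted p-value under 0.05, as 5.23% of all genes did.

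Class II genes were near the limit of detection in part. The 12 genes of class II presentation summed to 66.0 to 82.3 CPM in WT, 46.3 to 78.0 CPM in HET and 49.6 to 69 CPM in KO, and 3 were higher and 1 lower at an unadjusted p-value under 0.05, beside 15.7% and 9.48% of all genes. Without WT3 and HET3, 2 were higher and 0 lower, beside 4.18% of all genes higher and 5.23% in either direction. The median log2 fold change of the class II genes went from 1.69 to 0.85. The 3 that were higher were *H2-Oa*, *H2-Ob* and *H2-DMb1*, of which *H2-Ob* and *H2-DMb1* had a mean of 3.28 and 3.02 CPM. *Cd74*, the invariant chain, had 21.2, 12.7 and 1.15 CPM in WT, 9.31, 4.74 and 0.178 CPM in HET, and 10.9 and 6.39 CPM in KO. *H2-Ab1*, the β chain of the classical molecule I-A, had the reverse order, with 1.82, 2.92 and 13.2 CPM in WT, 10.4, 17.1 and 12.2 CPM in HET, and 2.94 and 5.21 CPM in KO, at a log2 fold change of -1.80. For the chaperone subunit *H2-Oa* the log2 fold change was 1.40 (edgeR adjusted p = 0.170), and it was -1.68 for the protease *Ctss* (adjusted p = 0.285).

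Whether loss of 1 *Nfkbia* allele changed the members was tested in the 6 WT and HET samples, with sex in the model. Of the 10 members, 0 had an unadjusted p-value under 0.05, as 3.86% of all 19542 genes tested did, and neither a member nor any other gene was called (0% of all genes; 754 genes at an unadjusted p-value under 0.05 by edgeR, 52 called by DESeq2). The log2 fold change of HET over WT was negative for 8 members and ranged from -0.89 with a standard error of 1.18 for *Nlrc5* to 0.23 with a standard error of 0.599 for *Tap1*, with edgeR adjusted p-values from 0.963 to 0.995. The mean of *B2m* was 898 ± 480.2 CPM (SD, n = 3) over the WT samples and 540.4 ± 204 CPM (SD, n = 3) over the HET samples, a difference smaller than the spread within WT. With the replicate number as a block, 2 members were lower in HET at an unadjusted p-value under 0.05, where 5.73% of all genes passed in either direction. They were *Psmb8* at -1.26 on the log2 scale (standard error 0.262, edgeR adjusted p = 0.412) and *Psmb9* at -0.83 (standard error 0.237, adjusted p = 0.660). The sex term of that fit takes up number 2, which is male in WT and female in HET. The estimate thus rests on WT1 with HET1 and on WT3 with HET3, the samples poor in LT-HSC markers. Erythroid markers moved in the fit without the block, with 8 of 9 higher in HET at an unadjusted p-value under 0.05 and a median log2 fold change of 1.72. Their part in the result for the members was not tested. Within the sexes the order differed between members. The male HET1 was below both male WT samples for 8 members, and the female HET2 and HET3 were above WT3 for 4 of them, *H2-D1*, *Tap1*, *Tap2* and *Tapbp*. Both orders together were seen in 9.77% of all genes.

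Between the sexes, and so between the RNA labels, most members differed in size much as in the KO contrast. In the fit to all 8 samples the male minus female log2 difference was positive for 9 members, from 0.67 for *Tapbp* to 2.07 for *Psmb8*, and -0.64 for *Psmb10*. At an unadjusted p-value under 0.05 it set apart 32.4% of all genes tested. The female references include WT3 and HET3, and the male samples include WT1 and WT2, so that sex, RNA label and the level of LT-HSC markers cannot be told apart in these samples.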

How the data were processed

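Bulk RNA-seq of 8 samples of sorted LT-HSCs was analyzed. The authors deposited raw counts per Ensembl gene. Per the methods, 50-bp single-end reads were trimmed (Trim Galore 0.6.6), aligned to GRCm38 with STAR 2.7.8 allowing 1 mismatch, and uniquely mapped reads were counted with STAR, without normalization. The strand column is not given in the sources used here. The authors also deposited log2 values normalized with DESeq2 1.38.3 and corrected for sex, which were not used here. The *H2* haplotypes of the embryos are not given in the sources used here.

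Members, gene lists and tests were chosen with earlier results of these data known. A gene entered a fit if the samples of that fit held at least 10 reads of it. After TMM normalization, edgeR 4.0.16 (R 4.3.3) fitted a quasi-likelihood model of sex plus genotype, and p-values were adjusted over all genes after Benjamini and Hochberg. Calls needed an adjusted p-value under 0.05 as well as a log2 fold change beyond 1 in either direction. Standard errors are the log2 fold change divided by the root of the F statistic. Ratios were compared by exact two-sided permutation over samples of log2 CPM with a prior count of 2. Scripts were tested on simulated data. IDs were matched to symbols for 55141 of 55487 genes, and positions and exon lengths are those of GENCODE M21. The depth, 17895973 to 21720972 counted reads per sample, limits detection to 0.125 to 0.178 CPM at 3 reads.

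The genes named are *Nfkbia*, the members, *Psmb5*, *Psmb6*, *Psmb7*, *Irf1* and *Rfx5*, from each pathway list the called genes or else up to 4 with the lowest unadjusted p-value at a mean of at least 5 CPM, and from each marker list the gene with the highest mean. A gene that the rule also named is not reported here. Genes named outside this rule were chosen after their values were seen. The replicate numbers of the labels were checked for pairing. Same-numbered WT and HET samples deviated together (r = 0.29, 0.20 and 0.59 across genes). However, WT2 deviated more closely with HET1 (r = 0.40) than with HET2. HET2 in turn deviated slightly more closely with WT1 (r = 0.23) than with WT2, while WT1 was closer to HET1. All same-numbered values were over 0.1, and the numbers were tried as a block in an alternative fit, although number 1 is male and number 3 female in both groups. The main fits took no account of the numbers. KO1 deviated with WT1 and HET1 (r = 0.28 and 0.24), and KO2 deviated against WT2 and HET2 (r = -0.35 and -0.12). Deviations from the mean of 2 KO samples are equal and opposite by construction. These values therefore cannot show whether the numbers pair the KO samples. Alternatives were DESeq2 1.42.0 with and without apeglm 1.24.0, RLE normalization, other filters, a model without sex, the replicate block, a reference of only WT or only HET, only female samples, and each sample left out. Leaving out WT3 and HET3 together, with edgeR and with apeglm, was added after seeing the data.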

Additional observations from a re-analysis of the deposited data

Results flagged for a closer look

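*Nlrc5* stood out within the 6 WT and HET samples, since HET3, with 0 reads, lay 0.695 of the whole range of log2 CPM away from the next sample, above Dixon's 95% limit for a group of that size. Chance flags about 1 in 20 such groups, and 13 groups were examined (10 members and 3 ratios). For 5 members every HET sample moved one way in males and the opposite way in females. HET1 was below WT1 and WT2 while HET2 and HET3 were above WT3 for *H2-D1* (interaction log2 fold change -1.56), *Tap1* (-2.23), *Tap2* (-1.06) and *Tapbp* (-1.51), and the reverse held for *Psmb10* (0.52). By edgeR's test of the interaction of sex and genotype the adjusted p-values were 0.439 to 0.487, so that the difference did not pass the threshold. The order seen in the first 4 of them was shared by 9.77% of all genes tested. The female reference in this comparison is WT3 alone, whose LT-HSC marker sum was 290.1 CPM against 608 and 201 CPM in HET2 and HET3, and its part in the pattern was not tested.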

How the results depend on the processing

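In KO against WT/HET, the number of called genes was 0 in the main analysis, 1825 with DESeq2 before shrinkage, 1463 with apeglm (20 without WT3 and HET3), 1106 without the filter on low counts, 706 with WT alone as the reference, and 0 to 703 when 1 sample was left out (703 without HET2, 8 without HET1). The number of members at an unadjusted p-value under 0.05 was 8, beside 25.2% of all genes. It was 0 without the sex covariate (2% of all genes), 0 with the replicate block (2.86%) and 4 with HET alone as the reference (15.7%). It was 1 without WT3 and HET3 by either tool (5.23% by edgeR, 7.32% by DESeq2). With 1 WT or HET sample left out it was 6 (15.9% without WT3) to 9 (30.2% without HET1). Without KO1, which leaves 1 KO sample, the median log2 fold change of the members was 0.98. The log2 fold changes of the 9 other members kept their sign under every alternative, and that of *Nlrc5* was -0.12 without the sex covariate, -0.19 with the replicate block, -0.51 with WT alone, and -2.28 to 1.51 when 1 sample was left out. The *Psmb8*/*Psmb5* difference was -0.15 without WT3 and HET3 and 0.30 to 1.90 with 1 sample left out, that of *Psmb9*/*Psmb6* 0.64 to 1.86, and that of *Psmb10*/*Psmb7* -0.0605 with WT alone and -0.0217 to 0.0765 with 1 sample left out. In HET against WT, 0 genes were called in the main analysis, 52 with DESeq2, 131 without the filter, and 0 to 76 with 1 sample left out (76 without HET2). Members at an unadjusted p-value under 0.05 were 0 (3.86% of all genes), 2 with the replicate block (5.73%), and 0 to 2 with 1 sample left out. They were 2 each without WT3 (both lower in HET, beside 15.2% of all genes in either direction), HET2 (both lower, 14.9%) or HET1 (both higher, 2.93%). *Tap1* reversed to -0.75 without the sex covariate. With 1 sample left out, HET over WT ranged from -0.82 to 0.47 for *B2m*, -1.24 to 0.94 for *H2-K1*, -0.94 to 0.61 for *H2-D1*, -0.86 to 1.36 for *Tap1*, -0.59 to 0.47 for *Tap2*, -0.97 to 0.53 for *Tapbp*, -1.13 to 0.32 for *Psmb8*, -0.98 to 0.78 for *Psmb9*, -0.14 to 0.38 for *Psmb10* and -2.05 to 0.20 for *Nlrc5*. *B2m*, *Tap1*, *Psmb8* and *Psmb9* were called by DESeq2 and without the filter, *Tap1*, *Tapbp*, *Psmb8* and *Psmb9* with WT alone (WT3 as the only female reference), and *B2m*, *Psmb8* and *Psmb9* without HET2. The block changed no other call, and the causes of these changes were not tested. Among the members, only *Nlrc5* had samples at or under 3 reads.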

Other observations

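Low-abundance class Ib genes of the Q and T regions differed between embryos in an order that did not follow genotype or sex. They were chosen after their values were seen, and several share sequence with neighbors, 16.1% of the 50-base runs of *H2-Q2* and 36.4% of those of *H2-Q4*. *H2-Q2* had 79 reads in WT1 and 91 in KO2, but 0 reads in WT2 and in KO1, which allows up to 0.125 and 0.147 CPM. HET1 had 36 reads, WT3 12, HET3 6 and HET2 2. *H2-Q4* was likewise high in WT1 and KO2, at 4.31 and 3.29 CPM, and low in WT2, KO1 and HET2, at 0.501, 0.734 and 0.151 CPM. *H2-T3*, which encodes the TL antigen, had 8 reads in WT1, 6 in KO2, 2 in HET1, 1 in WT3 and 0 in each of the others. *H2-Q10*, a secreted class I gene of the liver, had 3.09, 0.0418 and 10.2 CPM in WT1, WT2 and WT3, 1.17, 2.07 and 8.07 CPM in HET1, HET2 and HET3, and 0.0979 and 4.67 CPM in KO1 and KO2. WT3 and HET3 had the highest hepatocyte marker sums, whereas WT1 and WT2 had nearly the same sum (9.31 and 8.77 CPM) and differed in *H2-Q10*. The source of these differences was not tested.

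*Cd1d2* also varied within genotypes, with 2.92, 4.79 and 1.25 CPM in HET1, HET2 and HET3 and 1.17 CPM in KO1 against 3 reads in KO2.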
